A study of Mus musculus with 4 samples.

Results

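The chemokine ligand and receptor genes were taken as all autosomal protein-coding genes of the GENCODE M1 annotation (mm9 build) whose symbol is Ccl, Cxcl, Ccr or Cxcr followed by digits. The rule used only the symbol and found 52 gene entries of 21418, with 51 distinct symbols, 36 of them entries for ligands and 16 for receptors. DNA methylation was mapped by whole-genome bisulfite sequencing in 4 libraries of mouse colonic epithelium. Intestinal stem cells (ISCs) were sorted as Lgr5-EGFP+ cells, and their differentiated descendants as EpCAM-positive, Lgr5-EGFP-negative cells, both from newborn mice (P0, the day of birth) and from mice at the end of suckling (P21, 21 days old). All mice came from crosses of Lgr5-EGFP-CreER knock-in with wild-type C57 mice, with the reporter expressed from the Lgr5 locus. The P0 libraries were pooled from whole litters, whereas the P21 libraries were pooled from offspring that carried the reporter. Litters of such crosses can hold pups without the reporter, whose stem cells would be EGFP-negative. Whether the differentiated library at P0 held such cells was not tested. Pooling differed with age, so the effects of age and of pooling cannot be told apart. Each group was thus 1 library, and every test below compares single libraries rather than conditions.

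Chemokines are small secreted proteins that guide leukocytes along concentration gradients, and their receptors are membrane proteins, most of them coupled to G proteins. Some ligands keep cells at fixed places in healthy tissue, while others are switched on by bacterial products, interferon or cytokines. In the intestine the epithelium makes several of the ligands, whereas most receptors are known from leukocytes. Promoter methylation commonly goes with a silent gene, but expression was not measured in these libraries.

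The genome was divided into bins of 200 bp, the methylated and all calls of the CpGs in a bin were summed over both strands, and a bin was used when it held 2 or more CpGs and every library had 10 or more calls there. The chemokine genes held 953 such bins of 4076373 on the autosomes. A library held between 1023427645 and 1188114423 calls, and the median chemokine bin had 61 and 67 calls in the P0 and P21 libraries of ISCs and 92 and 80 in those of differentiated cells. A methylation level is the percentage of calls that were methylated. A promoter is 1 kb on either side of the start of transcription, and bins outside it were assigned to the last exon or to the rest of the gene body. A difference was called when it exceeded 15 percentage points with an adjusted p under 0.05 in Fisher's exact test, adjusted over all autosomal bins, or over the regions of that type in all genes. Reads that span several CpGs give several calls, so these p-values are too small, and the intervals and limits below cover counting error only. The sources name no step that removed duplicate reads, and any left in the tables would act on the p-values and intervals in the same way. The 4 comparisons share libraries in pairs: maturation (P21 against P0) in ISCs and in differentiated cells rest on separate libraries, though the ISC and differentiated libraries of 1 age may share mice of the pool, and each differentiation comparison (differentiated cells against ISCs at 1 age) uses a library of both.

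The sorted cells were checked with lists of marker genes. Promoters of 11 of 11 epithelial markers had median levels between 1.17% and 2.58% in the 4 libraries, with a maximum of 55.4%. Promoters of 14 leukocyte markers, of 15 listed, had medians between 77.2% and 78.5%, and the lowest of them stood between 7.31% and 11.2%. The 7 mesenchymal and endothelial markers had medians between 17.1% and 27.6%. Between P0 and P21 leukocyte marker genes had 8 gains (1.14%) and 6 losses (0.853%) in 703 bins in ISCs. The bins of all protein-coding genes had 1.25% and 1.6%. In differentiated cells the marker genes had 6 gains (0.853%) and 10 losses (1.42%), against 1.21% and 2%. The part that an altered share of other cells may play in any chemokine result was not tested.

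Sequences from the 4 ligand promoters on which the results turn most are given here, read from the mm9 genome along the strand of the gene, with each CpG in capitals. All 4 stretches lie in runs of adjacent called bins at a promoter, and the Cxcl5 stretch holds CpGs of the bin with the largest called difference. Ccl20 encodes a ligand for CCR6 made by the epithelium over lymphoid follicles, and its stretch of 300 bases runs from the start codon in exon 1 into intron 1, at chr1:83113399-83113698 on the plus strand. Cxcl9 encodes an interferon-induced ligand for CXCR3, and its 250 bases at chr5:92757073-92757322 on the minus strand end 29 bases into exon 1. Cxcl5 encodes a ligand that attracts neutrophils, and its 200 bases at chr5:91187661-91187860 on the plus strand lie upstream of the gene. Ccl26 encodes an eotaxin, a ligand that attracts eosinophils, and its 250 bases at chr5:136039540-136039789 on the minus strand are also upstream.
Ccl20: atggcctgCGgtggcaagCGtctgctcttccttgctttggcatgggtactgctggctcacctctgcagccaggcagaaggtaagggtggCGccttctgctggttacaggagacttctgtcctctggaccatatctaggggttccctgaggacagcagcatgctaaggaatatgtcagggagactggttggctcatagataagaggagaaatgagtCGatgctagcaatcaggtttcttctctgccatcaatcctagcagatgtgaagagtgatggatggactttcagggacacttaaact
Cxcl9: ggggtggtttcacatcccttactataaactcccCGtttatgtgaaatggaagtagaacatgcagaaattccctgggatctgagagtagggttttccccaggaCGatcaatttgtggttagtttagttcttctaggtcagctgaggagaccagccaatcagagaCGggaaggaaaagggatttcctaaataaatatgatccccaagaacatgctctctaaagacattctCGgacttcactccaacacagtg
Cxcl5: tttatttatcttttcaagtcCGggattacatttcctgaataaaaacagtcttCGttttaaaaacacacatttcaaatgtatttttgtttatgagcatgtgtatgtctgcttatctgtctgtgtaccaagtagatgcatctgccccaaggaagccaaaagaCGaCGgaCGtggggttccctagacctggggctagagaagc
Ccl26: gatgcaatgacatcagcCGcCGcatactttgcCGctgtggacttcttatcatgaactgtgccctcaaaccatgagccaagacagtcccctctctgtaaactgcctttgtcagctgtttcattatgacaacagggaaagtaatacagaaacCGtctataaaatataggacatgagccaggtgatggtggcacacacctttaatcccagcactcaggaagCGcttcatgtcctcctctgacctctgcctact

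Most chemokine promoters were poor in CpGs and methylated in the colonic epithelium. Their median was 23 CpGs in 2 kb against 62 for all genes. Of 47 entries with a measured promoter, 30 (63.8%) had a mean level over the 4 libraries above 60%, against 29.4% of all genes, and 8 (17.0%) were below 20%, against 59.5% of all genes. The median of these means was 67.1% for the chemokine genes and 10.4% for all genes. The other 5 entries had no usable promoter bin: Ccr3, a receptor known from eosinophils, and Ccl21a, Ccl21b, Ccl21c and Ccl27b, near-identical copies on chromosome 4 whose reads may not be placed uniquely and which had no usable bin anywhere in the gene.

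The promoters with the lowest levels were those of Cxcr4, Ccr9, Cxcr7, Cxcl12 and the longer of 2 entries named Ccl25. Cxcr4 and Cxcr7 encode receptors for the ligand made from Cxcl12, which guides stem cells and lymphocytes. Cxcr4 stood at 0.411% (ISCs) and 0.869% (differentiated cells) at P0, and at 0.918% and 0.469% at P21. Cxcl12 stood at 4.53% and 2.06% at P0 and at 4.19% and 1.68% at P21. The low level of Ccr9, the receptor for the thymic and intestinal ligand CCL25, belongs to the annotated start of its longest coding transcript, which lies within 1 kb of the start of Slc6a20a. At the other annotated start of Ccr9, 88772 bp downstream, the level was 86.7% and 82.9% at P0 and 83.2% and 80.1% at P21. The low Ccl25 start likewise lies within 1 kb of the start of Elavl1, and the shorter Ccl25 entry, whose start lies further downstream, had 72.6% and 69.3% at P0 and 69.3% and 78.2% at P21. Ccl27a, a skin chemokine, was between 1.57% and 7.26% at the start used and between 83.1% and 86.3% at an annotated start 3918 bp downstream. The Ccl27a levels are uncertain, as reads of the near-identical copy Ccl27b may not be placed uniquely. Thus for these 3 symbols, among others, the level at a promoter depended on which annotated start was used.

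The highest means belonged to Cxcr6, Ccl8, Ccr1, Ccr2 and Ccl24. Cxcr6, a receptor of memory T cells, stood at 95.8% and 91.9% at P0 and 90.1% and 90.8% at P21, and Ccr1, known from monocytes, rested on 1 bin. The 11 measured CC ligands of the chromosome 11 clusters, which mostly attract monocytes and T cells, all had promoters above 55% in every library, with medians from 73.5% to 80.4%. The 5 CXC ligands that attract neutrophils were lower, with medians from 23.6% to 34.8%. Cxcl2, which is induced by bacterial products, was between 23.6% and 25.5% in the 4 libraries, a range of under 2 points. Cxcl14, an epithelial ligand, was between 4.72% and 6.08%.

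**Figure D1:**
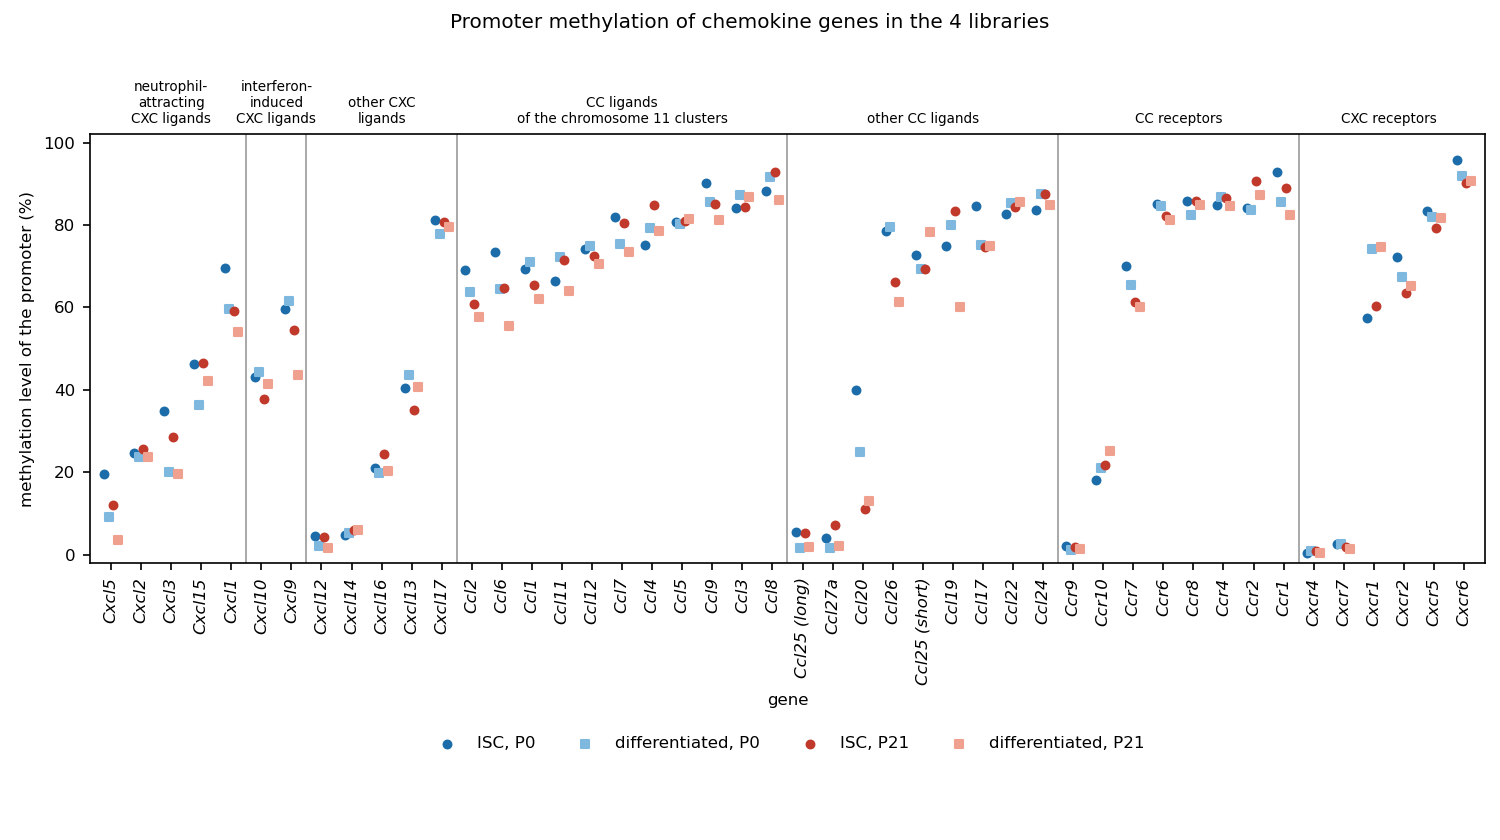
Promoter methylation level (%) of 46 chemokine gene entries with a measured promoter, grouped by role and ordered by mean level. Each point is 1 library, circles for ISCs and squares for differentiated cells, blue for P0 and red for P21, and the 11 CC ligands of chromosome 11 all stand above 55% while Ccl20 spans 11.1% to 39.8%.

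The question of the maturation comparisons was which chemokine loci differed between P0 and P21. Losses outnumbered gains in both populations, and they lay upstream of starts, in introns, in untranslated regions and in coding exons. In ISCs 32 of 953 bins (3.36%) were called as losses and 11 (1.15%) as gains, against 1.6% and 1.25% of the 1898397 bins of all protein-coding genes. In differentiated cells there were 32 losses (3.36%) and 9 gains (0.944%), against 2% and 1.21% of all genes' bins. The share of losses was thus above the background and the share of gains close to or below it, and the median difference over the 953 bins was 0 points in ISCs and -0.0758 points in differentiated cells. The gap in losses was smaller among bins with more CpGs, and the reason was not tested. Among the 405 bins with at least 4 CpGs, ISCs had 9 gains (2.22%) and 11 losses (2.72%), against 2.22% and 2.14% of the 749384 such bins of all genes. Differentiated cells had 5 gains (1.23%) and 12 losses (2.96%) there, against 1.94% and 2.37%, so with this minimum the share of losses was nearer the background in both populations.

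The losses were concentrated among bins of middle level. Of the 320 chemokine bins between 20% and 80% in ISCs at P0, 24 (7.5%) were called as losses, against 3.72% of such bins in all genes. Of the 493 at 80% or more, 8 (1.62%) were, against 0.869%. In differentiated cells the shares were 8.26% against 4.79% for the middle class and 1.01% against 1.02% for the high class. Chemokine bins were more often of middle level than those of all genes in ISCs at P0, 33.6% against 27.2%, so level is given here beside the counts and its part in them was not tested further.

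The median loss was -33.2 points in ISCs and -27.5 points in differentiated cells, and the largest were -79.5 and -61.0 points. In the promoters alone, 13 of 280 bins (4.64%) were losses and 2 (0.714%) were gains in ISCs, against 1.27% and 1.16% of the promoter bins of all genes. In differentiated cells 12 (4.29%) were losses and 2 (0.714%) gains, against 1.55% and 1.2%. These promoter backgrounds stood at a lower level. The mean level of promoter bins in ISCs at P0 was 51.2% for the chemokine genes and 28.4% for all genes. In differentiated cells at P0 it was 51.5% and 28.4%. Of all genes' bins in ISCs, 0.337% of those below 20% at P0 were losses, against 3.72% of those between 20% and 80%. Promoter bins were not matched for level, so its part in the promoter counts was not tested. The 2 maturation comparisons used separate libraries, but mice of 1 age may have given cells to both, so the comparisons are not known to be independent samples of animals. Of the 32 losses in ISCs, 16 (50%, and 50% of the 32 there) were also called in differentiated cells and 29 were lower there, and none was called in the opposite direction. Over all genes 48.5% of the ISC losses and 38.8% of those in differentiated cells were shared in this way. Of 11 gains in ISCs, 1 (9.09% of them, and 11.1% of the 9 in differentiated cells) was shared, against 27.4% over all genes. The shared gain was in the 3′ untranslated region of Cxcl12.

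**Figure D2:**
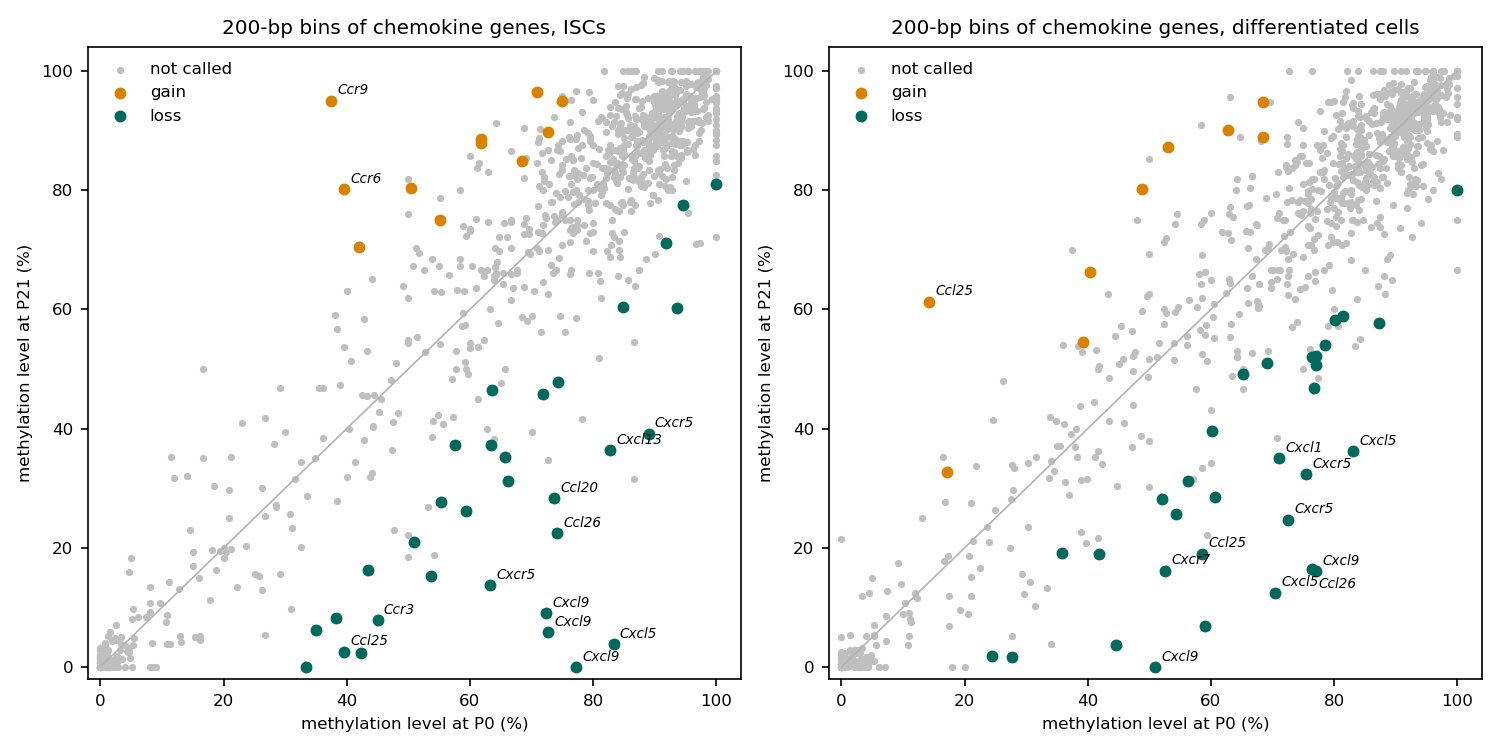
Methylation level (%) at P0 on the horizontal axis and at P21 on the vertical axis for the 953 bins of chemokine genes, in ISCs (left) and differentiated cells (right), 1 point per bin. Called losses (green, 32 in each panel) lie below the diagonal and called gains (orange, 11 and 9) above it, and names are given at called bins that differ by more than 35 points, such as Cxcl9, Cxcl5 and Ccl26.

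By role, the counts are read against the bins of all genes, of which 1.6% were losses and 1.25% gains in ISCs and 2% and 1.21% in differentiated cells. The neutrophil-attracting ligands had 3 losses (5.56%) and 0 gains of 54 bins in each population, and the interferon-induced ligands Cxcl9 and Cxcl10 had 4 losses (12.5%) in ISCs, 3 (9.38%) in differentiated cells and 0 gains of 32 bins. The other CXC ligands had 3 gains and 3 losses (2.16% each) of 139 bins in ISCs and 2 gains and 0 losses in differentiated cells. The chromosome 11 CC ligands had 1 gain and 1 loss (1.08% each) of 93 bins in ISCs and 0 gains and 4 losses (4.3%) in differentiated cells. The remaining CC ligands had 7 losses (4.43%) of 158 bins in each population, with 3 gains in ISCs and 2 in differentiated cells. The CC receptors stood near the share of all genes, with 3 gains and 6 losses (1.82%) of 329 bins in ISCs and 4 gains and 7 losses (2.13%) in differentiated cells. Of these bins 126 lay in the body of Ccr9 alone, so this long entry weighs on the shares. Ccr9 had 0 losses in ISCs and 3 in differentiated cells. The CXC receptors had 1 gain and 8 losses (5.41%) of 148 bins in each population. The groups were not tested against each other.

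**Figure D3:**
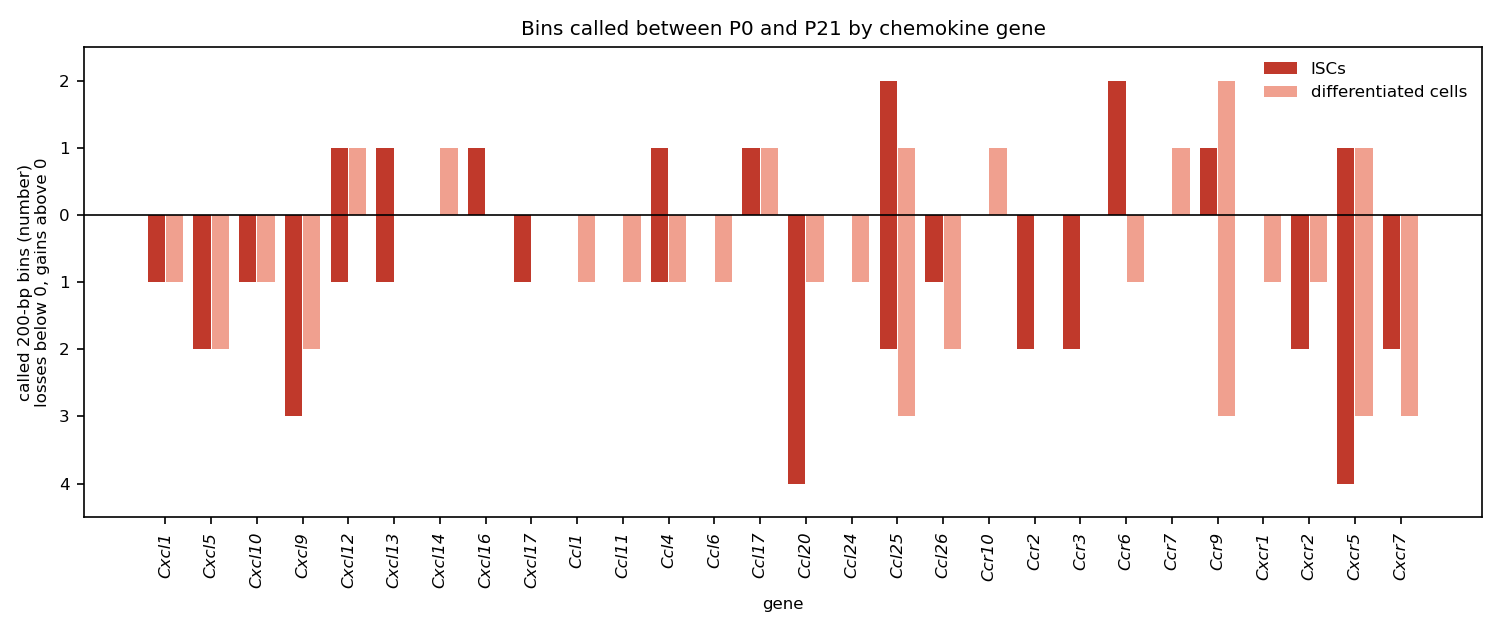
Number of 200-bp bins called as gains (bars above 0) and losses (bars below 0) between P0 and P21 for 28 chemokine genes with a called bin, dark red for ISCs and light red for differentiated cells. Ccl20 and Cxcr5 have the most losses in ISCs, 4 each, and Ccl25 and Ccr6 have 2 gains there.

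Ccl20 was the only chemokine promoter called in ISCs between P0 and P21. Its level was 39.8% at P0 (95% Wilson interval 34.15% to 45.84%, 266 calls) and 11.1% at P21 (8.18% to 14.8%, 343 calls) in ISCs, and 24.9% and 13.0% in differentiated cells. The ISC difference was -28.8 points (adjusted p = 1.61e-14, Fisher's exact test) and that of differentiated cells -12.0 points, under the minimum of 15. With the bins shifted by 100 bp the ISC difference was -13.5 points and was no longer called. This 1 call of 47 promoters (background 1.91% of all genes' promoters) was accompanied in differentiated cells by 2 calls (background 1.76%), Cxcl9 and Ccl26.

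A loss called in both populations lay just inside Ccl20. In the bin 160 bp downstream of the start, over the end of exon 1 and the start of intron 1, the level fell from 33.3% to 0% in ISCs (0 of 90 calls at P21, which allows up to 3.33%) and from 27.7% to 1.64% in differentiated cells, and the adjusted p of Fisher's exact test was 5.91e-07 and 1.34e-08. The 4 CpGs of the Ccl20 stretch printed above showed the same at single sites, with 16.7% to 36.8% in ISCs at P0, 0% at each of the 4 in ISCs at P21, 26.15% to 28.99% in differentiated cells at P0 and 0% to 5.41% there at P21. The next bin fell from 35.1% to 6.15% in ISCs, and stood at 31.4% and 10.3% in differentiated cells, where it did not pass the test. A further 2 adjacent bins over exon 2 and the start of exon 3, the first of them 960 bp downstream of the start, fell in ISCs and were not called in differentiated cells. The first went from 73.7% to 28.3% in ISCs, the largest called Ccl20 difference at -45.4 points (adjusted p = 6.71e-05, Fisher's exact test, 76 and 53 calls). In differentiated cells that bin stood at 54.5% and 76.0% on only 22 and 25 calls. The second went from 91.9% to 71.1% in ISCs and stood at 87.0% and 74.5% in differentiated cells. The 3 CpGs from 254 to 59 bp upstream of the start were between 0% and 6.25% in every library.

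Cxcl9 lost methylation across its start. In the bin centred on the start the level fell from 72.7% to 5.88% in ISCs and from 51.0% to 0% in differentiated cells (0 of 44 calls, which allows up to 6.82%), with adjusted p = 5.26e-07 and 4.45e-07 in Fisher's exact test. The neighbouring bin upstream fell from 77.3% to 0% in ISCs (0 of 18 calls, which allows up to 16.7%), and stood at 59.4% and 22.2% in differentiated cells on 32 and 18 calls. Over both bins the level was 74.2% at P0 and 3.85% at P21 in ISCs, and 54.2% and 6.45% in differentiated cells. A bin 801 bp inside the gene fell from 72.4% to 9.09% in ISCs, where P21 had only 11 calls, and from 77.1% to 16.1% in differentiated cells. That loss was not called in ISCs with bins shifted by 100 bp. The whole promoter was 59.6% and 54.4% in ISCs, which was not called, and 61.5% and 43.5% in differentiated cells, where it was (adjusted p = 1.89e-06, Fisher's exact test). That call was lost when bins needed 40 calls, with a difference of -7.76 points. Taken as the mean of its 9 bin levels, which gives sparse bins the weight of dense ones, the promoter went from 59.9% to 33.1% in ISCs and from 59.5% to 36.7% in differentiated cells.

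Cxcl10, the neighbour of Cxcl9 and another interferon-induced ligand for CXCR3, fell in an upstream bin at chr5:92778601-92778800 from 55.3% to 27.7% in ISCs and from 60.6% to 28.5% in differentiated cells. Its promoter as a whole was 43.1% and 37.7% in ISCs and 44.3% and 41.5% in differentiated cells. The letters GAAANNGAAA, the core of an interferon response element, were searched on both strands of the 300 bases from 250 before to 50 after each start. They were present at 3 of 52 chemokine starts (5.77%), those of Cxcl10, Ccl19 and Cxcl14, against 3.82% of all genes. The core GGGNNNNNCC of sites for NF-kappaB, a factor that induces many chemokines, was present at 25 of 52 (48.1%), among them Ccl20, Cxcl1, Cxcl2, Cxcl5, Cxcl9 and Cxcl10, against 56.0% of all genes. These are matches of letters only.

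Cxcl5 fell in 2 adjacent bins upstream of its start. The bin nearer the start, chr5:91187801-91188000, went from 83.3% to 3.85% in ISCs and from 70.4% to 12.5% in differentiated cells, on 24 to 32 calls per library, and the bin before it from 63.4% to 37.2% and from 83.02% to 36.2%. The 3 clustered CpGs near the end of the printed Cxcl5 stretch were between 62.5% and 100.0% in ISCs at P0 and between 0% and 11.1% at P21. Pooled over its bins, the promoter as a whole was 19.5% and 11.9% in ISCs and 9.12% and 3.58% in differentiated cells. As the mean of its 7 bin levels it went from 29.3% to 8.99% and from 31.1% to 7.94%, so the size of its difference depended on the weighting. Cxcl1, a related neutrophil attractant, had a loss at its start in ISCs, from 84.8% to 60.3%, where differentiated cells stood at 54.6% and 60.3%. It also had a loss upstream, at chr5:91319801-91320000, in differentiated cells, from 71.03% to 35.1%, where ISCs stood at 47.2% and 48.1%. Cxcl2, Cxcl3 and Cxcl15 had no called bin in either maturation comparison.

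Ccl26 fell just upstream of its start. The bin at chr5:136039601-136039800, upstream of the start, went from 74.2% to 22.5% in ISCs and from 76.4% to 16.5% in differentiated cells (adjusted p = 3.8e-07 and 7.55e-23, Fisher's exact test). The bin nearest the start went from 81.5% to 58.9% in differentiated cells and stood at 86.8% and 63.9% in ISCs, just outside the threshold with an adjusted p of 0.0598 in Fisher's exact test. The promoter was 78.6% and 66.3% in ISCs, which was not called, and 79.5% and 61.4% in differentiated cells, a called difference of -18.0 points. As the mean of its 8 bin levels the promoter went from 75.5% to 66.7% in differentiated cells, under the minimum, and with calls thinned to the lowest library the difference was -10.4 points and not called. The CpGs plotted inside the gene were all above 60% in every library.

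**Figure D4:**
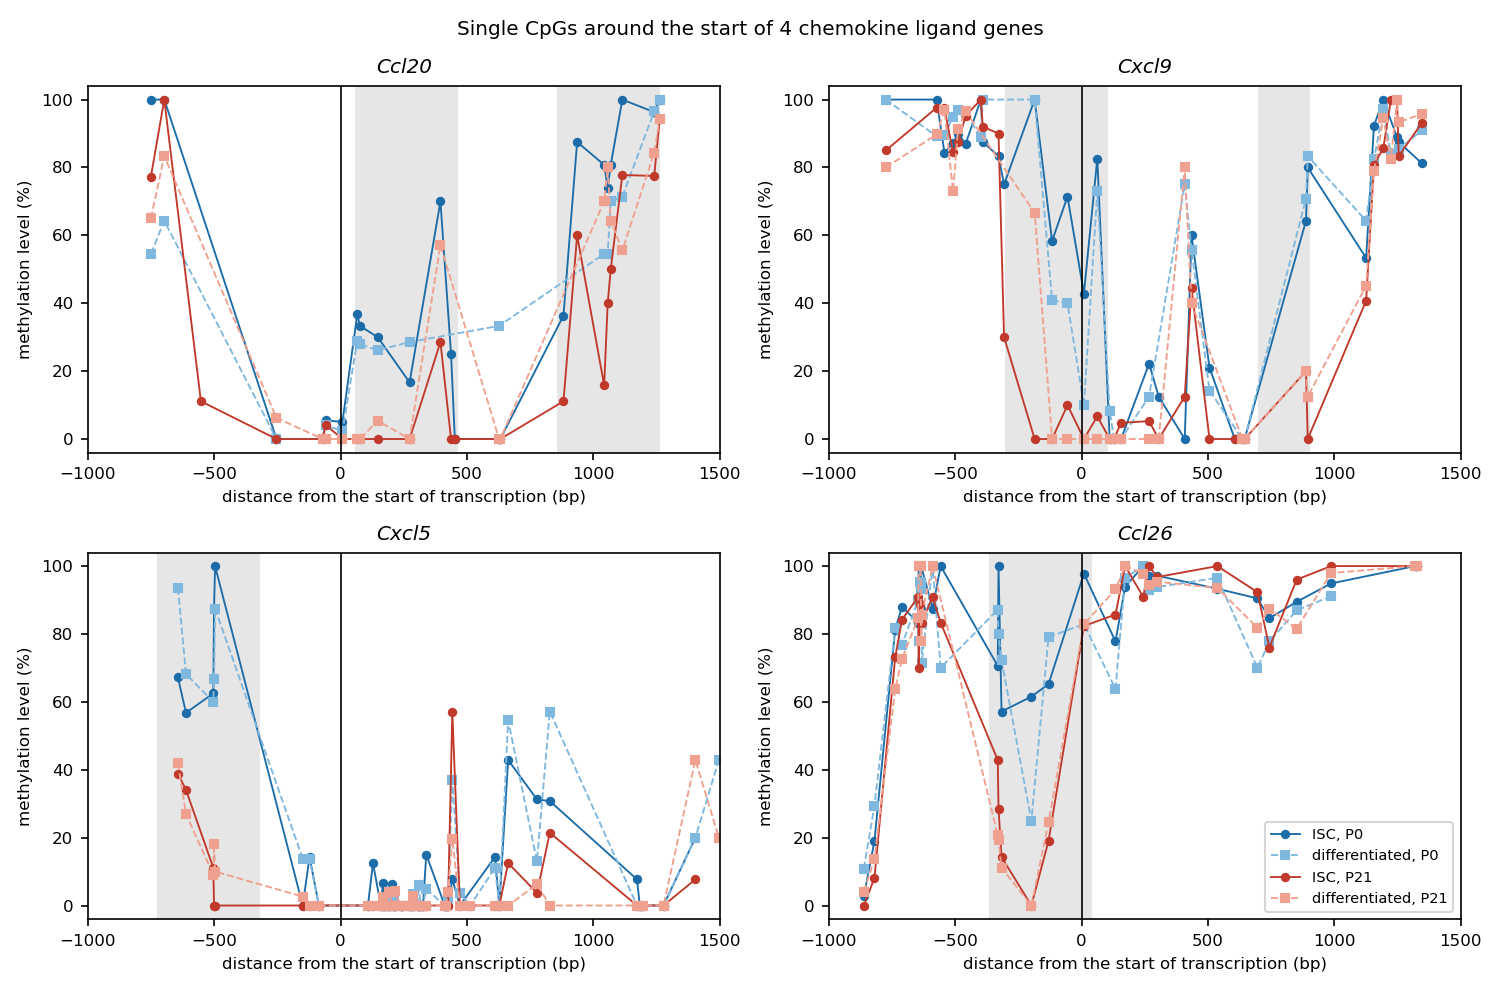
Methylation level (%) of single CpGs by distance from the start of transcription (bp, gene strand) at Ccl20, Cxcl9, Cxcl5 and Ccl26, for CpGs with at least 5 calls. Lines join the CpGs of a library, solid with circles for ISCs and dashed with squares for differentiated cells, blue for P0 and red for P21, and grey marks bins called between P0 and P21 in at least 1 population. In the grey bin at the Cxcl9 start both P21 lines lie below both P0 lines, 5.88% and 0% against 72.7% and 51.0% over the bin.

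Outside promoters, Ccl25, whose product draws T cells to the gut, lost methylation in an intron almost completely. At 1113 bp from the start of the shorter entry the level fell from 39.5% to 2.6% in ISCs and from 24.4% to 1.92% in differentiated cells (adjusted p = 9.73e-07 and 1.18e-05, Fisher's exact test). The 100 bases around its 2 CpGs, chr8:4350644-4350743 on the plus strand in intron 1, are shown because both sites were at 5% or less in both P21 libraries; like the Ccr3 stretch below, they were chosen after the values were seen.
Ccl25: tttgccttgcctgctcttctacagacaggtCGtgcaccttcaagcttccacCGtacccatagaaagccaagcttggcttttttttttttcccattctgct

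Ccl25 also had losses at 6113 bp in ISCs, from 63.6% to 46.4%, and at 9713 bp in differentiated cells, from 58.6% to 19.0%, and the longer entry had an intronic loss in differentiated cells from 80.2% to 58.2%. Its gains included 2 intronic bins of the longer entry in ISCs, from 70.9% to 96.4% and from 75.0% to 94.9%, where differentiated cells were at 92.5% or more at both ages. A bin shared by both entries went from 14.3% to 61.3% in differentiated cells on 35 and 31 calls and was 34.9% and 35.1% in ISCs. The Ccl25 entries were also called as last exons, on few calls: the shorter from 86.7% to 31.6% in ISCs on 15 and 19 calls, the longer in differentiated cells through that shared bin.

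Ccl4, a ligand that attracts monocytes and T cells, fell in an intronic bin from 43.4% to 16.3% in ISCs and from 41.8% to 19.0% in differentiated cells, while at its start it rose in ISCs from 72.6% to 89.7%. The bin at the start stood at 79.9% and 84.55% in differentiated cells. Ccl1, Ccl6 and Ccl11, 3 further ligands of chromosome 11, each had 1 promoter bin that fell in differentiated cells, from 60.1% to 39.5%, 52.0% to 28.3% and 65.2% to 49.2%. In ISCs, where none was called, these stood at 57.1% and 48.4%, at 57.3% and 41.9%, and at 56.6% and 65.8%. Ccl24, a second eotaxin, had a body bin that fell in differentiated cells from 35.8% to 19.1%, and Cxcl17, a mucosal ligand, one that fell in ISCs from 100.0% to 81.0%. Cxcl13, which attracts B cells, fell inside its promoter in ISCs from 82.8% to 36.4% on 29 and 22 calls, with 60.4% and 55.3% in differentiated cells.

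Gains at ligands were fewer. In the 3′ untranslated region of Cxcl12 a bin rose from 41.9% to 70.4% in ISCs and from 40.4% to 66.3% in differentiated cells, and it was not called with bins shifted by 100 bp. Another bin of that exon fell in ISCs from 93.5% to 60.3%, and stood at 83.7% and 61.8% in differentiated cells, where it was not called. The last exon of Cxcl13 rose in ISCs from 50.4% to 80.4%, with 63.3% and 71.7% in differentiated cells. That of Ccl17, a ligand for CCR4, rose in ISCs from 66.9% to 84.4%. In differentiated cells the last exon of Ccl17 stood at 72.5% and 86.1%, under the minimum difference, with 1 of its bins called as a gain, from 68.5% to 88.9%. Cxcl16, the ligand of CXCR6, rose in an upstream bin at chr11:70273801-70274000 in ISCs from 61.8% to 87.9%, with 74.4% and 78.4% in differentiated cells. The Cxcl16 start lies within 1 kb of the start of Zmynd15, and the promoter as a whole was 21.0% and 24.3% in ISCs. Cxcl14 had a body bin that rose in differentiated cells from 62.7% to 90%, where ISCs stood at 87.2% and 86.4%.

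Among the receptors, Cxcr5, which is found on follicular B and T cells, fell in the 3′ untranslated region of its last exon. The bin at chr9:44320801-44321000 went from 89.0% to 39.2% in ISCs and from 75.5% to 32.4% in differentiated cells, and the bin at chr9:44320401-44320600 from 63.2% to 13.8% and from 72.5% to 24.8%. The bin beyond it fell in differentiated cells from 87.3% to 57.7%, with 76.5% and 66.7% in ISCs. Of the 16 losses called in both populations, 4 were in a 3′ untranslated region, 7 in introns, 4 upstream and 1 in a 5′ untranslated region, by the annotation at the centre of the bin. The shares of these classes over all genes were not computed, so the split only says where these bins lie. Cxcr5 also had intronic calls in both directions, with a gain in ISCs from 61.7% to 88.5% and losses from 66.1% to 31.1% and from 94.6% to 77.5%, and in differentiated cells a gain from 68.5% to 94.7%.

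Ccr3 was called as a loss in ISCs and not in differentiated cells, in its coding exon. The bin at chr9:123943601-123943800 went from 45.0% to 7.92% in ISCs (adjusted p = 1.55e-05, Fisher's exact test) and stood at 39.8% and 31.5% in differentiated cells, and the next from 65.7% to 35.2% with 59.1% and 55.7%. The last exon was 68.0% and 38.5% in ISCs and 59.4% and 60.1% in differentiated cells. As the mean of its 4 bin levels it went from 64.6% to 47.6% in ISCs, a smaller fall, and from 57.7% to 63.9% in differentiated cells. At P21 the bin at chr9:123943601-123943800 was 23.6 points higher in differentiated cells than in ISCs, and that was the only chemokine bin called between the populations at P21. The difference between the changes in ISCs and in differentiated cells did not pass a test of its own. The stretch chr9:123943711-123943980 on the plus strand is shown because its 4 CpGs nearest the 5′ end were between 0% and 13.5% in ISCs at P21 and between 14.3% and 58.3% in the other 3 libraries, whereas the other 2 CpGs were between 27.3% and 90.9% in all 4.
Ccr3: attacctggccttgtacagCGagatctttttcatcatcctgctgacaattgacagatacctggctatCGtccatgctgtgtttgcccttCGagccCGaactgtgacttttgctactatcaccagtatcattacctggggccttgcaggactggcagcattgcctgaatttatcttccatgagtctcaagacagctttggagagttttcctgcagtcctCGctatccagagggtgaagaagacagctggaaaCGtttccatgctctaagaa

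**Figure D5:**
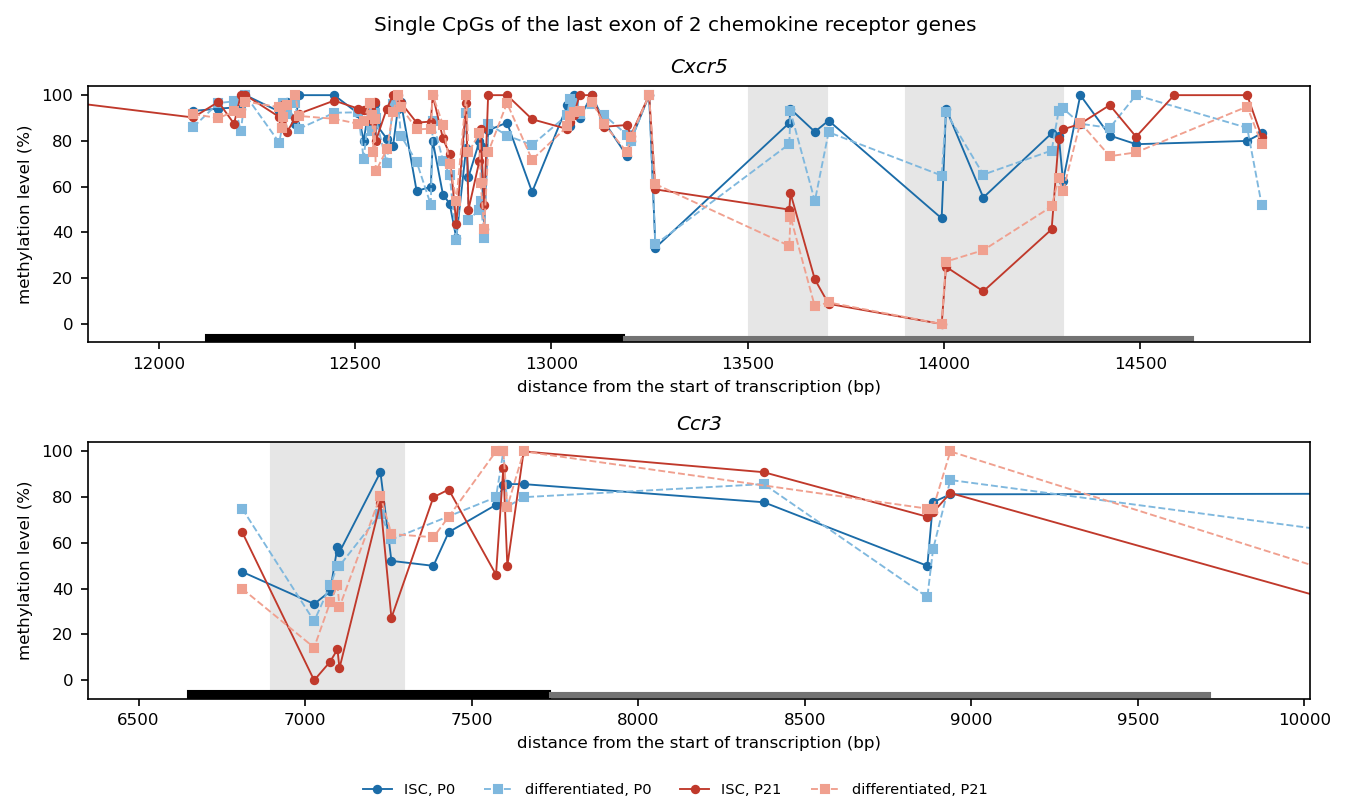
Methylation level (%) of single CpGs in the last exon of Cxcr5 and Ccr3 by distance from the start of transcription (bp, gene strand), for CpGs with at least 5 calls, with lines and colours as for the ligands. The thick black bar is the coding part and the thin grey bar the 3′ untranslated part, and grey bands are bins called between P0 and P21; the called Cxcr5 bins lie in the untranslated part and those of Ccr3 in the coding part.

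Cxcr7, a receptor that clears the product of Cxcl12, fell in intronic bins 4946 bp and 6946 bp from its start, from 59.3% to 26.1% and from 71.9% to 45.8% in ISCs and from 52.5% to 16.2% and from 78.6% to 54.0% in differentiated cells, while its promoter stayed between 1.24% and 2.58%. Another intronic bin fell in differentiated cells from 77.0% to 50.6%, with 71.2% and 69.7% in ISCs. Cxcr2, the receptor for the neutrophil-attracting ligands, fell in an intron from 57.6% to 37.3% in ISCs and from 69.1% to 51.0% in differentiated cells, and upstream of its start, at chr1:74200001-74200200, from 38.2% to 8.24% in ISCs, with 30.3% and 23.5% in differentiated cells. Ccr2, the monocyte receptor for CCL2, had 2 body bins that fell in ISCs, from 50.8% to 21.0% and from 74.3% to 47.9%, and Cxcr1 an intronic bin that fell in differentiated cells from 77.0% to 52.1%.

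Ccr6, the receptor for CCL20, rose in 2 intronic bins in ISCs, from 39.6% to 80.2% and from 55.2% to 75.0%. In differentiated cells these bins stood at 43.3% and 62.5% and at 62.8% and 72.7%, neither called. Another intronic bin fell in differentiated cells from 76.8% to 46.8%, with 52.6% and 52.8% in ISCs. The promoter at the start used was between 81.2% and 85.1%, but these called bins lie by other annotated starts of Ccr6, the 2 gains on either side of one 7602 bp downstream and the loss over one 6314 bp downstream. Within 1 kb of the start at 7602 bp the level was 52.5% and 72.7% in ISCs at P0 and P21, and 53.9% and 65.5% in differentiated cells, values given without a test. Around the start at 6314 bp it was between 74.8% and 81.7% in the 4 libraries. Ccr10, the receptor for CCL28 and CCL27, rose in 1 promoter bin in differentiated cells from 39.3% to 54.5%, with 39.6% and 53.7% in ISCs, and its promoter, within 1 kb of the start of Cntnap1, was between 18.1% and 25.2%. Ccr7, which guides dendritic cells to lymph nodes, had an intronic bin that rose in differentiated cells from 48.8% to 80.2%, with 61.0% and 63.6% in ISCs. Ccr9 had 2 gains and 3 losses among its many intronic bins in differentiated cells and 1 gain in ISCs. Ccl28 was not among the entries that the rule found and was not analysed here. Cxcr4, Ccr1, Ccr4, Ccr8 and Cxcr6 had no call in any comparison.

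Over whole regions, maturation calls were few in number, so their shares rest on small counts. Of 43 last exons measured, 4 (9.3%) were called in ISCs, against a background of 3.53%. Cxcl13 and Ccl17 were gains, and Ccr3 and the shorter Ccl25 entry were losses. In differentiated cells 2 (4.65%) were called, a gain of the longer Ccl25 entry and 1 loss, against 3.19%. Of 39 bodies, 2 (5.13%) were called in ISCs, losses of Ccr2 and Ccl20, against 1.14%. None was called in differentiated cells (background 1.03%). In ISCs the body of Ccr2 went from 61.7% to 44.5%, or from 59.0% to 46.1% as the mean of its 3 bin levels, which is under the minimum, and that of Ccl20, a single bin, from 91.9% to 71.1%.

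The differentiation comparisons asked which chemokine loci differed between ISCs and differentiated cells of 1 age, and few did. At P0 7 of 953 bins (0.735%) were higher and 2 (0.21%) lower in differentiated cells, against 0.286% and 0.222% of all genes' bins. At P21 1 (0.105%) was higher and 0 lower, against 0.0673% and 0.114%. The gains at P0 were 2 bins each of Ccl25, Ccr6 and Ccr9 and 1 of Ccr7. Those of Ccl25 lie in the longer entry, before the start used for the shorter one. Those of Ccr9 lie before its other annotated start, at 88772 bp. At the 2 Ccl25 bins the ISC library at P0 stood lowest of the 4, at 70.9% and 75.0%, with the other 3 libraries between 92.5% and 97.1%. The Ccr9 bin with the largest gain, 54944 bp from the start used, was 37.5% in ISCs at P0 on 16 calls and between 81.8% and 97.4% elsewhere. The losses were the Cxcl1 bin at the start, 84.8% in ISCs and 54.6% in differentiated cells, and an intronic bin of Cxcl14, 87.5% and 58.3%.

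Of the promoters, 1 was called at P0 (background 1.24%) and 0 of 47 at P21 (background 0.877%). Cxcr1, a receptor for interleukin-8-like ligands, was at 57.5% in the P0 library of ISCs and at 74.2% in that of differentiated cells (adjusted p = 1.24e-05, Fisher's exact test), and 60.3% and 74.7% at P21, a difference of 14.4 points. When calls were thinned to the lowest library the P0 difference was 8.11 points and not called, and as means of bin levels the values at P0 were 59.1% and 64.8%. At P0 the last exon of Ccl9 was lower in differentiated cells, 61.0% and 42.6% (1 call of 43, background 1.08%), although the means of its 6 bin levels were 69.6% and 69.3%, and no body was called (background 0.507%). At P21 the last exon of Ccr3 was higher, 38.5% and 60.1% (background 0.735%), and the bodies of Cxcl1 and Cxcr1 were lower in differentiated cells, at 82.4% and 64.2% and at 88.6% and 72.4% (2 of 39, background 0.359%). As means of 2 bin levels the Cxcr1 body stood at 87.5% and 76.1%, a difference under the minimum.

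Related genes were counted from 2 further lists. Of the bins of all genes, 1.6% were losses and 1.25% gains in ISCs, and 2% and 1.21% in differentiated cells. The list of other chemokine-like genes and atypical receptors, 13 matched of 16 symbols, had 6 gains and 5 losses of 513 bins in ISCs and 4 gains and 11 losses in differentiated cells, or 0.975% and 2.14% losses. The 29 genes of chemokine signalling and induction had 75 gains and 103 losses of 5398 bins in ISCs and 89 gains and 97 losses in differentiated cells, or 1.91% and 1.8% losses. The epithelial marker genes, listed only to check the cells, had 53 losses (8.73%) and 3 gains (0.494%) of 607 bins in ISCs. In differentiated cells they had 59 losses (9.72%) and 6 gains (0.988%). Their share of losses was larger than that of all genes, and larger than the 3.36% of the chemokine genes in each population.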

How the data were processed

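The deposited tables hold, per CpG cytosine and strand, the counts of all and of methylated calls and their ratio as a fraction, made by the authors. Colonic cells sorted from pooled mice were bisulfite-treated, and paired-end reads, trimmed of low-quality ends, were mapped to mm9 with Bismark. No version and no step of duplicate removal is given in the sources used here. The counts were used here, and the fraction only as a check. Calls at reference CpGs (99.1% to 99.5% of positions) were summed over strands into 200-bp bins with at least 2 CpGs and 10 calls in all 4 libraries. Genes came from GENCODE M1, with the transcript of longest coding sequence. Regions were exclusive in the order promoter, last exon, body. Python 3.11.15, NumPy 2.4.6, SciPy 1.17.1, pandas 2.3.3, numba 0.67.0 and matplotlib 3.10.9 were used. Each of 4 comparisons used a two-sided Fisher's exact test with Benjamini-Hochberg adjustment, tested on simulated data. Members and lists were chosen with earlier results of these data known. Genes were named when a bin or region was called, when among the 5 lowest or highest promoter means, or when in a list of gut chemokines. Alternatives varied the call and CpG minimums, the threshold, thinning, bin position, single CpGs, very deep CpGs, the start and promoter width. No replicates exist, so depth sets only the counting error. Results by name are not reported here for 1 gene, which stays in the counts.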

Additional observations from a re-analysis of the deposited data

Results flagged for a closer look

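A test of the interaction on the log odds of methylation, with 0.5 added to each cell and adjusted over all autosomal bins, marked 1 of the 953 chemokine bins (0.105%, against 0.154% of the bins of all protein-coding genes) as changing differently with age in the 2 populations by more than 15 points. It lies in an intron of Ccr9, 54944 bp from the start used and before the other annotated start, at 88772 bp. Its level went from 37.5% to 95% in ISCs and from 97.4% to 81.8% in differentiated cells, a difference between the changes of -73.05 points, on 16, 40, 38 and 33 calls. With 1 library in each group no sample could be compared with others of its group.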

How the results depend on the processing

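With 1 library per group no value has a replicate error, reads over several CpGs count several times, and depth limits bins with few calls. An additive fit of age and population over the 4 libraries was not run. Called bins were 43 and 41 for maturation in ISCs and in differentiated cells and 9 and 1 for differentiation at P0 and P21. They became 20, 17, 3 and 2 with at least 4 CpGs per bin (fewer bins tested), 20, 16, 3 and 0 above 30 points, 126, 130, 93 and 88 with 15 points and no test, 27, 18, 0 and 0 with calls thinned to the lowest library, and 12, 18, 0 and 0 with the single deepest CpG per bin. With bins shifted by 100 bp the differentiation counts became 5 and 3. The splits for maturation stayed toward losses in each of these, at 9 gains and 11 losses in ISCs with 4 CpGs. Called promoters were 1, 2, 1 and 0 in the same order. In ISC maturation they became 2 with 20 calls, 3 with 4 CpGs, 0 above 30 points, 0 with shifted bins, 2 with single CpGs, 2 with promoters of 500 bp on each side and 3 with the mean of bin levels and no test. In differentiated cell maturation they became 1 with 20 calls, 0 above 30 points, 0 when thinned, 1 with single CpGs and 4 with 500 bp. For differentiation at P0 they became 3 with 20 calls, 0 with 40 calls, 2 with 1 CpG, 3 with 4 CpGs, 0 above 30 points, 0 when thinned, 3 with single CpGs and 0 with the mean of bin levels; at P21 they became 3 with 4 CpGs, 1 with no test, 1 with shifted bins, 1 with 500 bp and 1 with the mean of bin levels. Other than the fewer bins tested, the causes were not tested. The 17 bins called in both populations give 34 differences. Other minimums of calls or CpGs, other thresholds and leaving out very deep CpGs kept the counts of these bins as they were. A sign could thus change only with thinned calls, shifted bins or single CpGs, and none did. Of those that could be computed, 28 of 34 were called when thinned, 17 of 24 with shifted bins and 17 of 30 with single CpGs. Above 30 points 22 of 34 were called. All were called with 20 or 40 calls, 1 or 4 CpGs or without very deep CpGs, where only the adjustment of p could differ.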
